A study of Mus musculus with 18 samples.

Results

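The early response of factor-dependent myeloid (FDM) cells to loss of interleukin-3 (IL-3) was compared between genotypes, by asking for each probe whether the change over the first 6 h differed between p53-/- and WT cells. The difference was taken as the change in p53-/- cells minus the change in WT cells, each measured within a clone, so that a positive value means a larger rise or a smaller fall in p53-/- cells. It used the 12 arrays at 0 h and 6 h of the 18 in the series, and the 20461 of 46632 probes that 1 or more of the 12 detected, at a detection p under 0.01. FDM cells are myeloid lines of the mouse that were immortalized by HoxB8 and depend on IL-3, derived here from WT or p53-/- mice, with 3 independent clones of each genotype. The groups were WT 0 h and p53-/- 0 h, both growing in medium with IL-3, and WT 6 h and p53-/- 6 h, both cultured for 6 h after IL-3 was withdrawn. All 4 groups carry HoxB8, and each had 3 arrays, 1 per clone. The arrays were Illumina MouseWG-6 V1, and levels are given as log2 intensity after background correction and quantile normalization, and changes and differences are on that log2 scale unless given as folds.

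IL-3 binds a receptor of an alpha chain and a common beta chain, and signals through JAK2 and STAT5, the Ras, Raf, MEK and ERK kinases, and PI3K and AKT. In myeloid progenitors these pathways sustain growth, ribosome production and survival, and when the cytokine is lost their target genes are switched off while FOXO targets and some death genes are released. p53 is a transcription factor activated by stress, whose targets include inhibitors of the cell cycle and BH3-only death genes such as Bbc3 (Puma) and Pmaip1 (Noxa).

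Median intensity was 133.7 to 175.2 on the 12 arrays, 30.7% to 34.0% of probes were detected, and 0 pairs of arrays were identical. The probes kept included 15700 with 1 gene symbol, for 10843 genes. Probes for Trp53 itself were not analysed here, so genotype rests on the labels. Of 12 myeloid genes chosen to check the cell type, 11 were measured and 7, among them Spi1, Cebpa, Prtn3 and Ctsg, were detected on all 12 arrays. Mpo, the myeloperoxidase gene of granulocyte precursors, was detected on 9. Its mean level differed by genotype, at 6.68 in WT 0 h and 6.94 in WT 6 h against 11.05 in p53-/- 0 h and 10.84 in p53-/- 6 h. The genotypes were closer for Spi1, Cebpa, Prtn3 and Ctsg. p53-/- clone 2 stood apart. Its changes correlated with those of the other p53-/- clones at 0.380 and 0.335, where clones 1 and 3 correlated at 0.649. With WT clones 1, 2 and 3 they correlated more, at 0.457, 0.472 and 0.426. Its weight among the 6 clones was the lowest (0.402).

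Only 1 probe passed the test of the difference, which in limma needed both an adjusted p of at most 0.1 and a B statistic (log odds of a difference) above 0. It was 0.00489% of those tested, and 0 named genes passed. At an unadjusted p under 0.05 there were 2415 probes (11.8%), 1235 of them higher and 1180 lower in p53-/- cells. Among genes, taking the brightest probe of each, 613 were higher (5.65%) and 666 lower (6.14%). These counts were 1124 and 1289 without p53-/- clone 2, and 339 to 473 and 395 to 645 without any other single clone. The median half-width of the 95% interval of a difference was 0.639 on the log2 scale. Differences smaller than this mostly could not reach an unadjusted p under 0.05 with 3 clones a genotype. The passing threshold was stricter, and a difference of -2.22 for the gene Ky did not pass it. With 3 clones against 3, an exact permutation test of a single gene cannot go below 0.1. At the passing threshold, without p53-/- clone 2, 215 probes passed (152 higher and 63 lower), and without any other single clone 0 or 1 did. The median difference over all genes was -0.05.

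Changes within each genotype were much more often called. In WT cells 804 probes passed (332 rose and 472 fell), among them 146 genes that rose (1.35%) and 298 that fell (2.75%). In p53-/- cells 754 probes passed (377 and 377), among them 136 genes that rose (1.25%) and 214 that fell (1.97%). The number in WT cells was 452, 319 and 441 without WT clones 1, 2 and 3, and that in p53-/- cells was 280 and 411 without p53-/- clones 1 and 3. Both genotypes called 163 genes, 36.7% of the WT and 46.6% of the p53-/- genes, and all 163 went in the same direction. Over the 10843 genes, which are not independent replicates, the changes of the genotypes correlated at 0.566.

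The size of the shared response was described with the 1512 probes that passed for the mean change of both genotypes, a contrast that does not use their difference. The 728 that rose did so by a median of 1.01, 0.91 and 0.78 in WT clones 1, 2 and 3 and by 1.14, 0.82 and 0.94 in the p53-/- clones. The 784 that fell had median changes of -1.06, -1.17 and -1.01 in the WT clones and -1.08, -0.80 and -0.88 in the p53-/- clones. The clones of the genotypes overlapped for the rises, and for the falls p53-/- clones 2 and 3 lay outside the WT range and clone 1 within it. In all 6 clones the direction was the same for 1455 of the 1512.

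**Figure D1:**
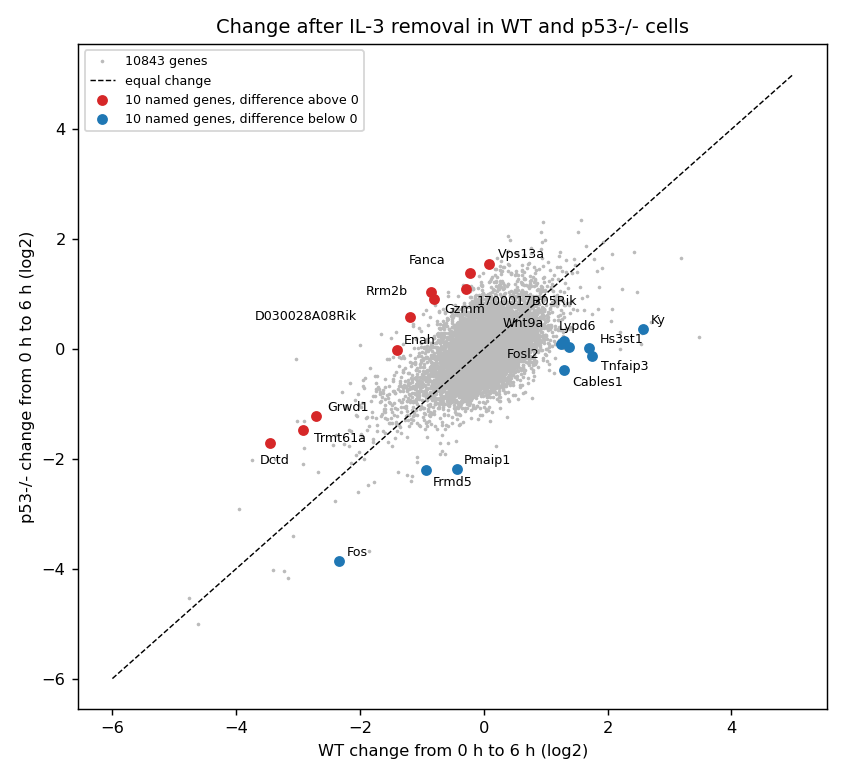
Change from 0 h to 6 h (log2) in WT cells on the horizontal axis and in p53-/- cells on the vertical axis, each point 1 of 10843 genes, with the 20 named genes in color and the line of equal change dashed. The changes correlated at 0.566, and 10212 of the 10843 genes passed in neither genotype. Dctd, Trmt61a and Grwd1 fell in both genotypes but further in WT cells. Fos lies below the line, at a p53-/- level that no array detected at 6 h.

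The probe that passed, ILMN_1231006, carries no gene name in the annotation used here. In WT cells it was at 4.56, 4.93 and 4.74 in clones 1, 2 and 3 at 0 h and 4.78, 4.80 and 4.71 at 6 h, undetected on all 6 arrays. In p53-/- cells it was at 4.95, 5.30 and 6.32 at 0 h and rose to 8.08, 7.87 and 8.67 at 6 h. All 3 p53-/- arrays at 6 h lay above the other 9. The change was 0.02 in WT and 2.68 in p53-/- cells, a measured difference of 2.66 (standard error 0.275, adjusted p = 0.0508). The WT values were not above background, and the probe entered the test only through the p53-/- arrays, so the size of the difference is not exact. It passed in 11 of 21 alternatives. It ranged from 0.68 to 2.83 over the alternatives, and did not pass without any 1 of the 3 WT clones or without p53-/- clone 1 (2.44 to 2.76, adjusted p of 0.218 to 0.422).

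The 20 named genes below had the smallest p of the difference in each direction, with the 3 p53-/- changes apart from the 3 WT changes. None passed, and the adjusted p was 0.18 to 0.229. As background, p53-/- changes lay above all WT changes for 903 genes (8.33%) and below them for 1162 (10.7%). Among the genes higher in p53-/- cells were 3 that passed as falling in both genotypes, and fell further in WT cells.

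Dctd, which encodes the deaminase that turns dCMP into dUMP for thymidine synthesis, had levels of 10.13, 10.27 and 10.37 in the WT clones at 0 h and 6.84, 6.35 and 7.22 at 6 h. In p53-/- clones it was at 9.75, 9.67 and 10.51, and then at 8.12, 7.78 and 8.91. The groups overlapped at 0 h, and all p53-/- clones were above all WT clones at 6 h. The fall was 3.45 in WT cells and 1.71 in p53-/- cells (log2 changes of -3.45 and -1.71), a difference of 1.74 (95% interval 1.13 to 2.36, adjusted p = 0.18).

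Trmt61a, the catalytic subunit of a tRNA methyltransferase, went from 10.51, 10.71 and 10.45 to 7.76, 7.43 and 7.73 in WT and from 9.94, 10.13 and 10.81 to 8.50, 8.38 and 9.59 in p53-/- clones, a difference of 1.44 (0.84 to 2.04, adjusted p = 0.205). Grwd1, a WD-repeat protein of ribosome assembly, went from 9.14, 8.80 and 8.53 to 6.26, 6.17 and 5.91 in WT and from 8.91, 8.92 and 9.52 to 7.32, 7.53 and 8.82 in p53-/- clones, a difference of 1.48 (0.84 to 2.12, adjusted p = 0.223). For both genes the 6 h arrays of the genotypes did not overlap and those at 0 h did.

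Other genes of this direction moved in a single genotype. Fanca, a subunit of the Fanconi anemia core complex in DNA crosslink repair, was at 5.13, 4.64 and 5.57 in p53-/- clones at 0 h, all undetected, and rose at least 1.81-fold to 6.08, 6.11 and 7.27 at 6 h. In WT cells it stayed between 5.24 and 5.70 with a change of -0.22, and 1 of 6 arrays detected it. Vps13a, a lipid transfer protein, rose by 1.55 in p53-/- cells and had a change of 0.08 in WT cells on its brightest probe. A second Vps13a probe had a difference of -0.59, the opposite sign.

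Rrm2b encodes the ribonucleotide reductase subunit that p53 induces. Its WT levels were 6.41, 6.53 and 6.05 at 0 h and 5.0, 6.36 and 5.06 at 6 h, and its p53-/- levels 4.82, 4.55 and 4.45 and then 5.92, 5.57 and 5.48. At 0 h the genotypes were apart, with 3 of 3 WT and 0 of 3 p53-/- arrays detecting it, and at 6 h they overlapped. At 6 h 1 of 3 arrays detected it in each genotype. Neither change passed (-0.86 and 1.04), and the measured difference of 1.90 (adjusted p = 0.18), which rests in large part on undetected values, ran from 0.27 to 2.24 over the alternatives. Enah, an actin regulator, fell by 1.4 in WT cells but was undetected on all 6 p53-/- arrays, so no fall could have been measured there. The other 3 were D030028A08Rik, 1700017B05Rik and Gzmm, the granzyme M gene, with differences of 1.79, 1.38 and 1.72 and each was undetected on 3 or more of the 12 arrays.

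Among the 10 genes lower in p53-/- cells, Fos, the immediate early transcription factor of AP-1, had the largest falls. It was at 10.21, 10.57 and 10.33 in WT clones at 0 h and 7.91, 8.54 and 7.65 at 6 h. In p53-/- clones it was at 8.90, 8.59 and 8.59 at 0 h and 5.19, 4.63 and 4.68 at 6 h, where no array detected it. The genotypes did not overlap at either time. The fall was 2.34 on the log2 scale in WT cells and, as a fold, at least 8.47-fold in p53-/- cells. The measured difference was -1.52 (adjusted p = 0.18), which rests on values that no array detected. It was -0.64 with an offset of 50 and -0.02 with no background correction, and the processed table of the authors gave 0.45, the opposite sign.

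Pmaip1 (Noxa), a BH3-only death gene and a target of p53, was at 10.15, 10.53 and 10.10 in WT clones at 0 h and 9.56, 10.22 and 9.70 at 6 h. In p53-/- clones it went from 11.27, 10.02 and 9.69 to 8.49, 8.22 and 7.69. The genotypes overlapped at 0 h, and at 6 h every p53-/- clone was below every WT clone. It fell by 2.19 in p53-/- cells, with a WT change of -0.43 that did not pass, and the difference was -1.76 (-2.42 to -1.10, adjusted p = 0.18). Its second probe gave -1.31.

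Cables1, a protein that links cyclin-dependent kinases to their regulators, rose in WT cells from 10.96, 10.34 and 10.34 to 11.72, 11.84 and 11.95. In p53-/- cells it was at 10.32, 9.63 and 8.97 and then 9.97, 9.66 and 8.15, with a change of -0.38 that did not pass. The difference of -1.67 (-2.39 to -0.95, adjusted p = 0.223) ran from -1.95 to -1.41 over the 21 alternatives, and passed in 5 of them. Alternatives that changed only the filter, threshold, prior or, without weights, the block could not move this estimate. Frmd5, a FERM domain protein of cell adhesion, fell in both genotypes, by 0.93 in WT and 2.20 in p53-/- cells. Its second probe had a smaller difference (-0.40 against -1.27).

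The other lower genes rose in WT cells, and their p53-/- changes did not pass. Ky, a muscle peptidase-like gene, rose by 2.58 in WT cells and had a change of 0.36 in p53-/- cells, with a second, dimmer probe that called neither. Hs3st1, a heparan sulfate sulfotransferase, rose by 1.70 against 0.01. Lypd6 and Wnt9a, both tied to Wnt signaling, were undetected on all 6 p53-/- arrays. In WT cells Lypd6 rose by 1.38 on the log2 scale, and Wnt9a at least 1.39-fold, which is not on that scale. A second, slightly dimmer Lypd6 probe had a WT change of 0.40 that did not pass. Its difference was -0.47, against -1.34 on the brightest probe. Tnfaip3 and Fosl2 are given with their pathways.

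**Figure D2:**
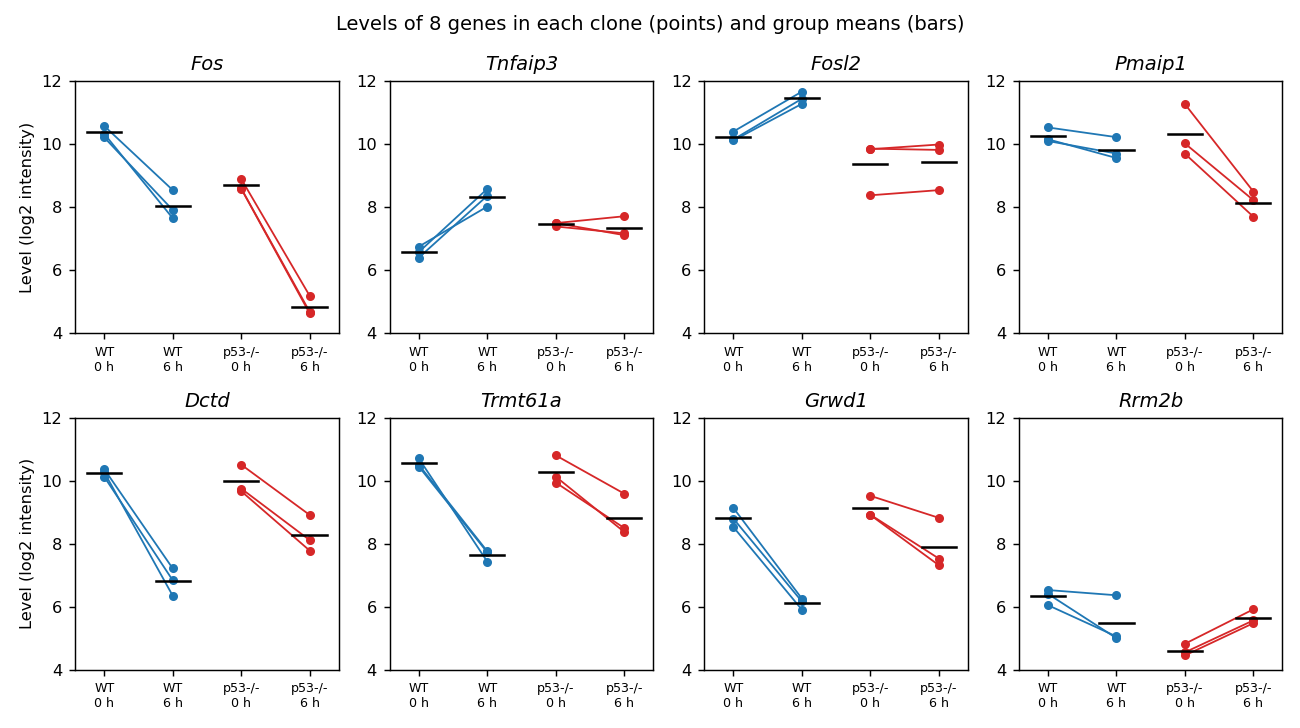
Levels (log2 intensity) of 8 named genes in each clone at 0 h and 6 h, WT in blue and p53-/- in red, with lines joining the arrays of a clone and black bars at group means. Dctd, Trmt61a and Grwd1 start at like levels and end lower in WT cells, while Fos and Pmaip1 end lower in p53-/- cells.

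Most of the genes at an unadjusted p under 0.05 passed in neither genotype alone, 455 of the 613 higher and 545 of the 666 lower. Since the difference chose them, the rest is a description. Of the 613, 106 passed as falling in WT cells, 16 of these also in p53-/- cells, and 52 passed as rising in p53-/- cells. Of the 666, 71 passed as rising in WT cells and 50 as falling in p53-/- cells, 9 of them falling in both. The genotype gap was smaller at 6 h than at 0 h for 529 of these 1279 genes and larger for 750. Over all genes it was smaller for 46.6%.

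Gene lists are described by counts at an unadjusted p under 0.05, set against 5.65% higher and 6.14% lower over all genes, and by their median difference against -0.05. Where members are counted as falling within a genotype, the share over all genes was 2.75% in WT and 1.97% in p53-/- cells. In the plot of the differences by list, ribosome biogenesis and histone genes lie furthest to the right, and ERK feedback, sphingolipid, FOXO and immediate early genes to the left. Medians were closer to 0 in the processed table of the authors, at 0.19 for ribosome biogenesis, 0.41 for histone, 0.11 for ATF4, 0.08 for cholesterol, -0.22 for sphingolipid, -0.07 for FOXO and -0.07 for NF-kB genes. With no replicate block, the count over all genes was 275 higher and 311 lower, against 613 and 666 in the reported fit. By list it was 6 higher for ribosome biogenesis, 1 for histone, 0 for ATF4 and 1 for cholesterol genes. It was 1 lower for sphingolipid, FOXO and ERK feedback genes, 3 for immediate early genes and 4 for NF-kB genes, and 1 in each direction for p53 targets.

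**Figure D3:**
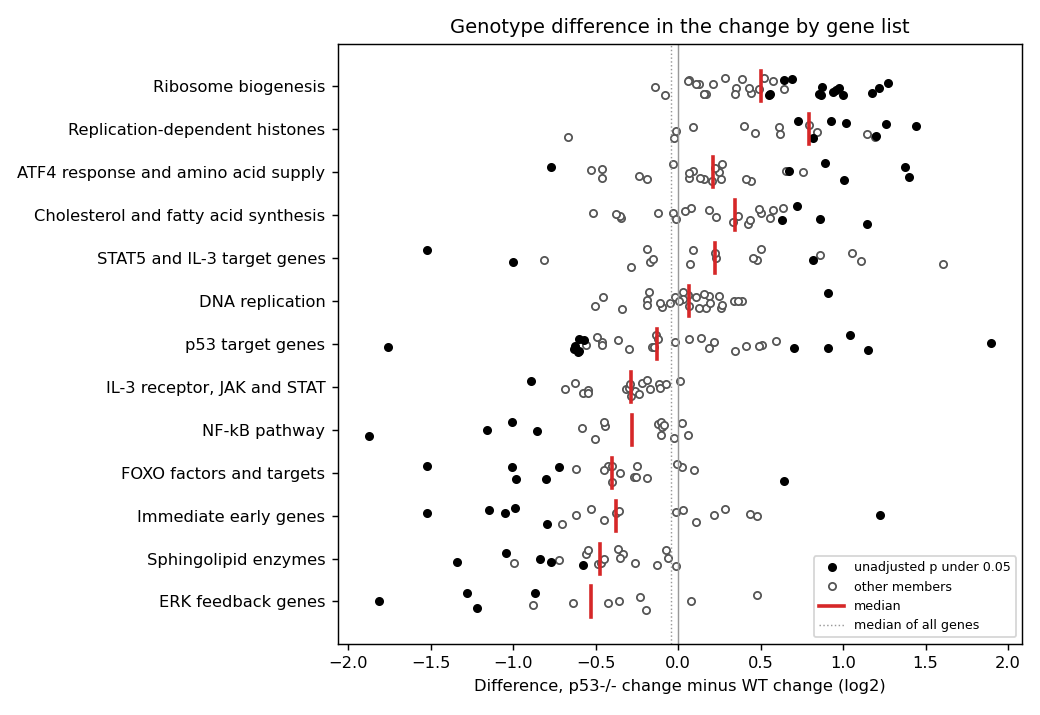
Difference in the change (log2, p53-/- minus WT) for the members of 13 gene lists, filled where the unadjusted p was under 0.05, with the list median in red and the median of all genes dotted. The medians run from -0.53 for ERK feedback genes to 0.79 for histone genes.

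Genes of ribosome biogenesis encode the factors that transcribe, modify and assemble ribosomal RNA, and depend on growth signals. Of 34 measured, 20 fell in WT cells and 11 in p53-/- cells, 10 of them in both, and 0 rose. The difference was above 0 for 32, with 14 higher and 0 lower at an unadjusted p under 0.05 and a median of 0.50. The median change of the list was -1.12, -1.39 and -1.16 in WT clones 1, 2 and 3 and -0.64, -0.76 and -0.58 in the p53-/- clones, which did not overlap. Leaving out each clone gave 10 to 12 higher and medians of 0.40 to 0.56, and the lower count was 0 in all 21 alternatives.

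Rrp12, which exports ribosomal subunits from the nucleus, was at 9.995, 9.81 and 9.78 in WT clones at 0 h and fell to 8.36, 8.07 and 7.87. In p53-/- clones it was at 9.44, 9.72 and 10.42 and then 9.21, 8.85 and 10.05, with a change of -0.49 that did not pass. At 6 h all p53-/- clones were above all WT clones, and the difference was 1.27 (0.69 to 1.85, adjusted p = 0.229). Ddx21, a nucleolar RNA helicase, fell by 1.34 in WT cells against -0.16, and Gar1, a core protein of the H/ACA particles that modify rRNA, by 1.37 against -0.15. Second probes of Ddx21 and Gar1 had differences of 0.94 and 1.04. Ppan, a factor of the large subunit, fell in both genotypes, by 2.02 and 1.01.

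**Figure D4:**
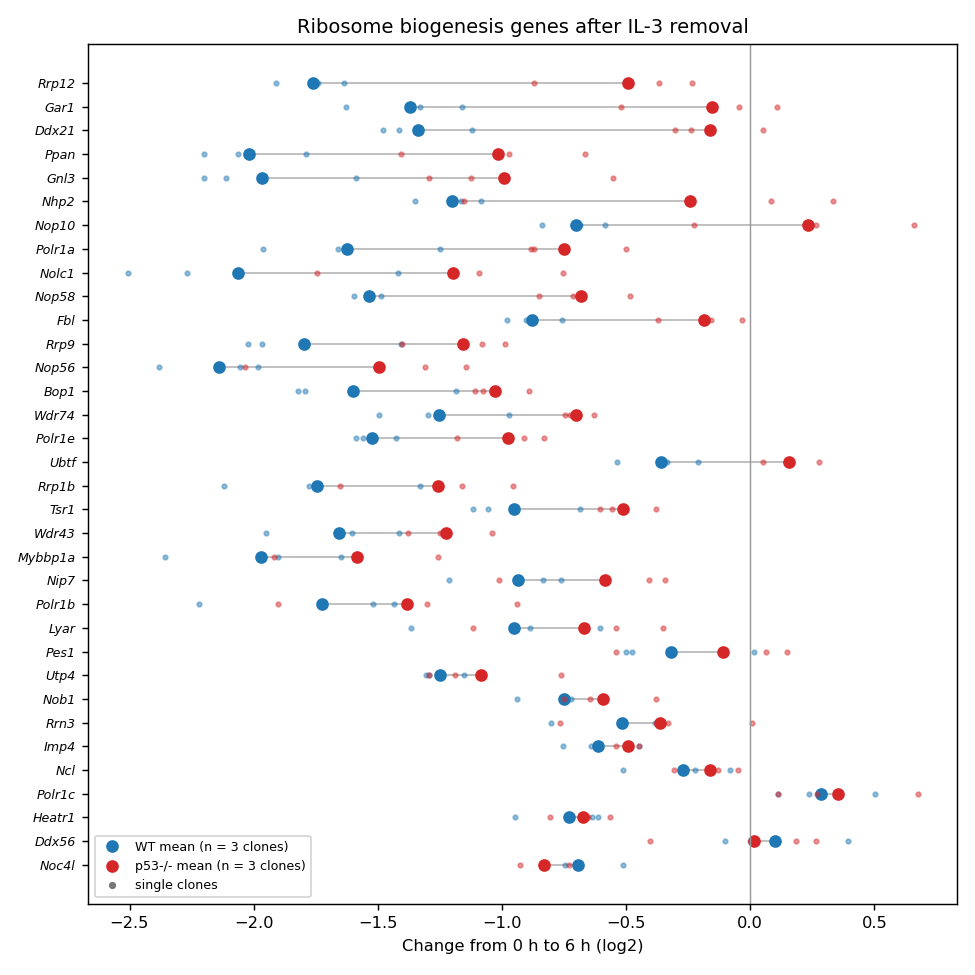
Change from 0 h to 6 h (log2) of 34 ribosome biogenesis genes, each a row, with the WT mean in blue, the p53-/- mean in red and single clones as small points. The WT mean is the lower in 32 of 34 rows.

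Myc drives ribosome genes through the E-box, so the letters CACGTG, which read the same on both strands, were looked for in promoters from RefSeq (build GRCm38.p6), windows of 300 bases around each start. Promoters were found by symbol for 31 of the 34 genes, and 7 of them held the motif (22.6%), against 8.09% of 27025 genes with a promoter and 11.3% of the measured genes. It was in 0 of the 12 that differed at an unadjusted p under 0.05 and in 7 of the other 19. Myc itself fell in both genotypes (log2 changes of -3.96 and -2.91), from 9.82, 10.48 and 9.82 to 5.86, 6.09 and 6.30 in WT clones and from 11.24, 10.57 and 10.89 to 7.35, 7.39 and 9.25 in p53-/- clones. All p53-/- clones were above all WT clones at both times. Its difference was 1.05 (-0.07 to 2.18, adjusted p = 0.449). The processed table of the authors gave -0.14, the opposite sign.

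Genes of amino acid supply that ATF4 controls leaned the same way, with 5 of 26 higher and 1 lower, a median of 0.21, and 11 falls in WT cells against 4 in p53-/- cells. Asns, which makes asparagine, went from 11.14, 10.72 and 10.96 to 9.31, 8.90 and 9.92 in WT clones, a fall of 1.56, and from 10.72, 10.22 and 13.02 to 10.64, 9.98 and 12.77 in p53-/- clones, a change of -0.18. The difference was 1.38 (adjusted p = 0.229) and 0.53 on a second probe. Slc1a4, a neutral amino acid transporter, fell by 1.96 in WT cells against -0.56, and Shmt2, the mitochondrial enzyme of serine breakdown, by 1.74 against -0.74. The higher count was 3 without WT clone 2.

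Of 24 genes of cholesterol and fatty acid synthesis, 4 were higher and 0 lower, with a median of 0.35, and 10 fell in WT cells against 3 in p53-/- cells. Hsd17b7, a late enzyme of cholesterol synthesis, fell in both, with changes of -2.23 and -1.08 (difference 1.15, adjusted p = 0.268). Fasn, fatty acid synthase, fell by 1.17 in WT cells against -0.31. The higher count was 2 without WT clone 1 or p53-/- clone 3 and 7 without p53-/- clone 1.

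Replication-dependent histone genes are transcribed in S phase, and many are near-identical copies whose probes may share signal. Of 19 measured, 7 were higher and 0 lower, with a median of 0.79. H2bc8 was the only member called within a genotype, falling by 1.47 in WT cells. The median change was 1.11 in p53-/- clone 1 and 0.67 in clone 3 but -0.01 in clone 2, and -0.06, 0.03 and -0.27 in the WT clones, so clone 2 lay within the WT range. H4c8 went from 7.14, 9.33 and 9.66 to 10.12, 9.70 and 11.27 in p53-/- clones, and from 9.17, 9.29 and 8.81 to 9.63, 9.46 and 8.83 in WT clones. The higher count was 15 without p53-/- clone 2 and 1 without p53-/- clone 1, where the median was 0.44. It was 5, 4 and 2 without WT clones 1, 2 and 3 and 4 without p53-/- clone 3.

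**Figure D5:**
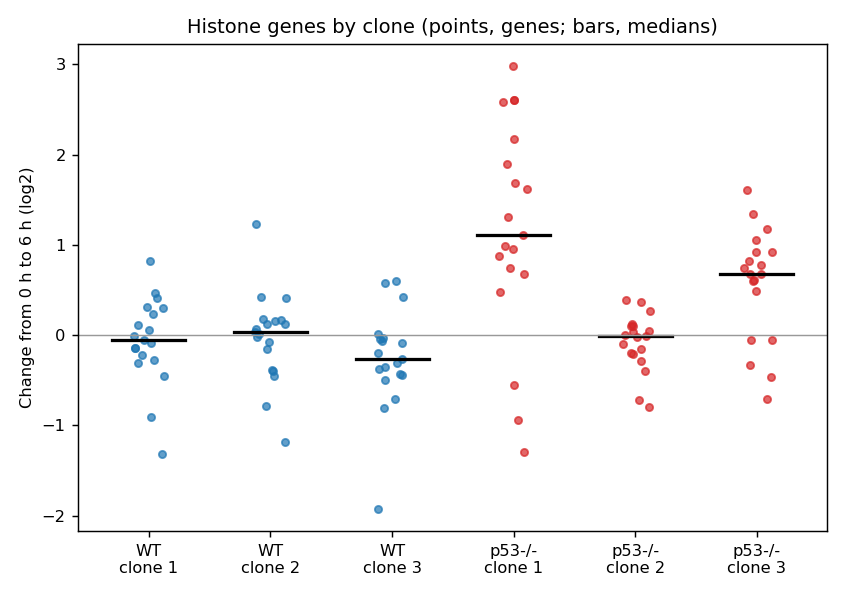
Change from 0 h to 6 h (log2) of 19 histone genes in each of the 6 clones, with the median as a bar. The bars of p53-/- clones 1 and 3 are at 1.11 and 0.67, and that of clone 2 is at -0.01, among the WT clones.

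DNA replication genes did not follow the histones, with 1 of 28 higher, 0 lower and a median of 0.06.

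Immediate early genes and ERK feedback genes both respond to ERK. Of 19 immediate early genes, 5 were lower (Fos, Fosl2, Nr4a2, Zfp36 and Ier2) and 1 higher, with a median of -0.38, and 7 of the 19 had a difference above 0. That median was 0.02 without p53-/- clone 3 and 0.02 with the authors' processed values. Fosl2, an AP-1 partner, was at 10.11, 10.40 and 10.14 in WT clones at 0 h and rose to 11.28, 11.66 and 11.44, while p53-/- clones went from 9.84, 9.85 and 8.37 to 9.98, 9.81 and 8.54. At 6 h the genotypes were far apart, and the difference was -1.15 (-1.66 to -0.64, adjusted p = 0.228), with a dim second probe at 0.00. Zfp36, which destabilizes cytokine mRNAs, fell in both genotypes, by 1.07 in WT and 2.06 in p53-/- cells. Fosb, the single higher member, was detected on 2 of the 12 arrays, both WT 0 h.

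Of 12 ERK feedback genes, 4 fell in WT cells and 8 in p53-/- cells, the 4 among the 8. The difference was lower for 4, with a median of -0.53, and for 0, with a median of -0.13, in the processed table of the authors. Dusp5, a nuclear ERK phosphatase, went from 11.27, 11.33 and 11.98 to 8.18, 9.59 and 11.24 in WT clones and from 11.91, 11.63 and 9.50 to 7.81, 7.89 and 6.32 in p53-/- clones. The WT clones spread widely, from -3.10 to -0.74, and all p53-/- falls were larger, a difference of -1.81 (-2.97 to -0.66, adjusted p = 0.319). Dusp6, the cytoplasmic ERK phosphatase, fell by 1.38 and 2.25. Spry4, a Sprouty inhibitor, fell at least 2.39-fold and Etv5, an ETS factor, at least 2.86-fold in p53-/- cells, with 0 of 3 arrays detecting either at 6 h. The lower count was 1 without WT clone 3.

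Tnfaip3 (A20), which shuts off NF-kB signaling, had the lowest p in the NF-kB list. It was at 6.39, 6.57 and 6.74 in WT clones at 0 h and rose to 8.36, 8.58 and 8.01. In p53-/- clones it was at 7.49, 7.49 and 7.38 and then 7.11, 7.71 and 7.17. WT clones were the lower at 0 h and the higher at 6 h, without overlap at either time. The difference was -1.87 (-2.53 to -1.22, adjusted p = 0.18), and passed in 6 of 21 alternatives. Nfkbiz, a nuclear IκB protein that selects NF-kB targets, fell by 1.19 in p53-/- cells against -0.03. In all, 4 of 16 list members were lower and 0 higher, with a median of -0.28. The lower count was 2 without WT clone 1.

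NF-kB binds sites close to GGG, any 2 bases and TTTCC, and those letters were looked for on both strands of the same promoters. They were in 5 of the 12 list members with a promoter, against 1.89% of all genes with one. Of the 4 lower members, Tnfaip3 and Nfkbia, the inhibitor IκBα, held a match, Nfkbib did not, and no promoter was found for Nfkbiz. Rel, Nfkb2 and Traf2, which were not among the lower members, also held one. The promoters of Tnfaip3 and Nfkbia are printed because they hold it. Nfkbia had changes of 0.44 in WT and -0.41 in p53-/- cells, and neither passed. Both are shown 5′ to 3′ on the gene's strand, with the match in capitals, Tnfaip3 at chr10:19015361-19015660, minus strand, and Nfkbia at chr12:55492598-55492897, minus strand.
Tnfaip3: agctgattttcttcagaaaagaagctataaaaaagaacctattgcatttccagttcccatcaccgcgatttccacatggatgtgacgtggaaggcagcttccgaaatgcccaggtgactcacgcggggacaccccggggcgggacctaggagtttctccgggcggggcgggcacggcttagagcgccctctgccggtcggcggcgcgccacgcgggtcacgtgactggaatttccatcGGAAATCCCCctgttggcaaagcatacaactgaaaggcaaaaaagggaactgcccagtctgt
Nfkbia: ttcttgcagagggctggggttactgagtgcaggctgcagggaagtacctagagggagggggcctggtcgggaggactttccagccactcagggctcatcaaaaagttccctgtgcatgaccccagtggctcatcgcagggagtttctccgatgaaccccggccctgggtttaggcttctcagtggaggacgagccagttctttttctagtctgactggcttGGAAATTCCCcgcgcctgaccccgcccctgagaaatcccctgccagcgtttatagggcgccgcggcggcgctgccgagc

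Of 20 sphingolipid enzymes, all 20 had a difference below 0, 5 of them at an unadjusted p under 0.05, with a median of -0.48. Sphk1, whose product phosphorylates sphingosine, was at 7.64, 8.85 and 5.65 in WT clones and rose to 9.61, 10.55 and 8.19. In p53-/- clones it was at 12.20, 11.65 and 12.53 and then at 12.80, 12.67 and 13.09, a change of 0.73 that did not pass. Every p53-/- array was above every WT array, so the gap narrowed, by 1.34 (difference -1.34, -1.98 to -0.70, adjusted p = 0.239). Its 2 dimmer probes had differences of 0.31 and 0.30, the opposite sign. Sgpl1, the lyase that breaks sphingosine-1-phosphate down, and Sgms1, a sphingomyelin synthase, had differences of -1.04 and -0.84. The other Sgms1 probes gave -0.60 and -1.60. The lower count was 3 without WT clone 3 or p53-/- clone 3 and 8 without p53-/- clone 2.

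Target genes of p53 went both ways, with 5 of 32 higher, 7 lower and a median of -0.13. Besides Rrm2b and Pmaip1, Ptp4a3, a phosphatase of the PRL family, fell by 1.13 in WT cells against 0.02 (difference 1.15, adjusted p = 0.302). Cdkn1a, whose product p21 blocks the cell cycle, was at 12.57, 12.55 and 11.59 in WT clones and then 12.32, 11.90 and 11.11, and at 8.78, 9.33 and 10.01 in p53-/- clones and then 9.89, 9.70 and 9.86. WT cells were far above p53-/- cells at both times. Neither change passed (-0.46 and 0.44), and the difference was 0.91 (0.17 to 1.64, adjusted p = 0.379). A second Cdkn1a probe gave -0.17. Trp53inp1, a p53-inducible nuclear protein, rose by 1.28 in WT cells against 0.65. Bbc3 (Puma) had changes of 0.11 and 0.60, a difference of 0.49 (-0.43 to 1.42, adjusted p = 0.639). A second, slightly dimmer Bbc3 probe had changes of 0.50 and 0.27, a difference of -0.23, the opposite sign. Without WT clone 2 the counts were 3 higher and 1 lower, and the lower count was 3 without WT clone 3 or p53-/- clone 1 and 4 without p53-/- clone 3.

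Among 19 STAT5 and IL-3 target genes, 11 fell in WT cells and 8 in p53-/- cells, all 8 in both, and the difference was higher for 1 and lower for 2. These counts were 4 and 2 without p53-/- clone 3, 2 and 0 without WT clone 3, and 0 and 2 without WT clone 2. Cish, the STAT5-induced inhibitor of cytokine signaling, went from 13.49, 13.77 and 13.69 to 11.39, 11.59 and 11.51 in WT clones and from 12.81, 12.59 and 12.46 to 10.54, 10.74 and 10.33 in p53-/- clones. It fell by 2.15 and 2.08, and the interval of its difference, -0.45 to 0.60, leaves out any gap of the size seen for Dctd. Socs1, an inhibitor of JAK kinases, had changes of -1.02 and -0.20 (difference 0.82, adjusted p = 0.37). Socs3, an inhibitor of gp130 signaling, fell in WT cells (log2 change of -2.91), from 9.43, 9.79 and 8.82 to 5.65, 5.93 and 7.73. In p53-/- cells it was already low, at 5.06, 6.41 and 6.97, and was undetected at 6 h. Cd69, an early activation antigen, fell by 3.17 in WT and 4.17 in p53-/- cells.

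Bcl6, a transcriptional repressor that STAT5 represses, rose at least 5.33-fold in WT cells, to 6.96, 7.73 and 9.49 from undetected levels. In p53-/- cells it reached 7.04 and 7.02 in clones 1 and 2 but 4.73 in clone 3, a change that did not pass. STAT5 binds TTCNNNGAA, which was in 3 of the 13 list members with a promoter, against 9.55% of all genes. These 3 are printed as above because they hold the motif, with matches in capitals. Cish is at chr9:107296409-107296708, plus strand, Socs3 at chr11:117969317-117969616, minus strand, and Bcl6 at chr16:23988803-23989102, minus strand.
Cish: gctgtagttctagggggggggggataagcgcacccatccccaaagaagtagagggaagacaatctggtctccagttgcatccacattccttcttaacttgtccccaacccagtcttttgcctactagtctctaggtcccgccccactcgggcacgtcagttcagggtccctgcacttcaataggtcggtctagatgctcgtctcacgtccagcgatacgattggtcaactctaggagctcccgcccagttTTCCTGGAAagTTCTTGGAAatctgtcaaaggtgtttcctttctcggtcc
Socs3: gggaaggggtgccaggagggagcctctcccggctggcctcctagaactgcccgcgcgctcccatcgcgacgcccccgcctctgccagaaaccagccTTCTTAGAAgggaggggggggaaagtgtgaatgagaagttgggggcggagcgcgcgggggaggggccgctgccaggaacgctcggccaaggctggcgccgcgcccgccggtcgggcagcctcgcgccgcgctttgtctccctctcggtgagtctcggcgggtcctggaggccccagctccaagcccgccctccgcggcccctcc
Bcl6: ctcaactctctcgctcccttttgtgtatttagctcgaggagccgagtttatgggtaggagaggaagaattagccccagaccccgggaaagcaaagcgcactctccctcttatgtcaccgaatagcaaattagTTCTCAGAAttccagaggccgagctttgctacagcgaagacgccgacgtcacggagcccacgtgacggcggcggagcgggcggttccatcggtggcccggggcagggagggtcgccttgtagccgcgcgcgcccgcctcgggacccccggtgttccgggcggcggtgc

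FOXO factors and targets had 5 of 19 lower and 1 higher, with a median of -0.40. Pik3ip1, an inhibitor of PI3K, rose by 1.27 in WT cells against 0.54. Rbl2, a pocket protein of quiescent cells, and Btg1, an antiproliferative factor, had differences of -1.01 and -0.99, with no change passing in either genotype. The lower count was 3 without WT clone 2 or p53-/- clone 1 and 2 without p53-/- clone 3. Of 19 genes of the IL-3 receptor, JAKs and STATs, 18 had a difference below 0 but only 1 was lower, and 8 were without p53-/- clone 2. Sgk1, a kinase downstream of PI3K, fell by 2.29 in p53-/- cells against -1.24 in WT cells, which did not pass. Calm2, a calmodulin gene, rose by 1.43 in p53-/- cells against 0.25 (difference 1.18, adjusted p = 0.332).

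In other lists, 3 of 19 genes of glucose uptake and glycolysis were lower and 1 higher, and 3 of 21 cytokines and chemokines were lower and 0 higher. Hk2 and Slc2a3, a hexokinase and a glucose transporter, had differences of -0.91 and -0.76, and the cytokine genes Il1b, Csf1 and Ccl4 had -1.11, -0.91 and -1.44. None of these 5 passed as changing in either genotype. The lower count for glycolysis was 0 without WT clone 3 or p53-/- clone 3, 1 without WT clone 2 or p53-/- clone 1 and 5 without p53-/- clone 2, and that for cytokines was 5 without p53-/- clone 3. At an unadjusted p under 0.05, of 10 death members of the BCL-2 family only Pmaip1 differed, and of 5 survival members 0 did on the brightest probe. Dimmer Bcl2 probes reached that level in both directions, with differences of -0.54 and 0.90. Of 14 caspases and their regulators 2 were lower. The CDK inhibitors Cdkn1a and Cdkn2a were the 2 of 6 higher in their list, which was 0 without p53-/- clone 1 and 1 without any 1 WT clone. Of 31 autophagy and lysosome genes 3 were lower, with 9 without p53-/- clone 2, 3 without WT clone 1 and 1 without each other clone.

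Markers of blood and stromal cells showed little difference in the change. Over the 7 marker lists, which share 4 genes, 1 gene was higher and 5 were lower, of 74 measured. The summed log2 level of 19 erythroid and megakaryocyte markers was 129.4 to 143.0 in WT 0 h, 130.6 to 149.3 in WT 6 h, 164.0 to 178.5 in p53-/- 0 h and 166.1 to 181.2 in p53-/- 6 h. That of 11 mast cell and basophil markers was 122.8 to 135.9, 128.5 to 138.9, 108.0 to 120.9 and 111.0 to 122.9 in the same order. For both of these lists the genotypes were apart at both times. The sums of monocyte, lymphoid and stromal markers were also apart, but they rest in part on undetected values. Only 3 of 7 monocyte, 1 of 7 lymphoid and 2 of 8 stromal markers were detected on every array. The lymphoid gap was narrow, with a highest WT sum of 36.80 and a lowest p53-/- sum of 37.05 at 0 h. At 6 h these were 37.13 and 37.85. For neutrophil and myeloid progenitor markers the genotypes overlapped at both times. The WT clones spread widely in the 14 neutrophil markers, with sums of 95.3 to 150.7 at 0 h and 97.1 to 152.4 at 6 h. The p53-/- sums ran from 96.2 to 103.1 at 0 h and from 96.0 to 102.3 at 6 h. The part of cell makeup in the differences above was not tested. In such samples fewer cells of a type and less RNA per cell cannot be told apart.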

How the data were processed

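RNA from 3 clones per genotype was read on Illumina MouseWG-6 V1 arrays, and 12 of 18 arrays were used. The authors deposited probe intensity before normalization, with software and background option not given in the sources used here, and a detection score, deposited as 1 minus the detection p. A second table deposited by the authors, on a log2-like scale from the lumi package, compresses low signals by a transform not given in the sources used here, and served as an alternative.

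Background correction used the neqc function (limma 3.58.1, R 4.3.3), with background inferred from detection p, an offset of 16, quantile normalization over 18 arrays and log2. A linear model with clone as a fixed block was fitted to 12 arrays (4 residual df, 5.81 prior df), and eBayes tests were two-sided, with Benjamini-Hochberg adjustment over 20461 probes. The labels number replicates and name no clone, and the paper describes 3 independent clones, so same-numbered arrays of a genotype were taken as 1 clone. Their deviations correlated at 0.330 to 0.760 over 6 pairs, and at -0.050 to 0.032 across genotypes. An unnamed array was dropped in the study's methods, but all 12 were kept here. Slide was not known here. Precision is limited by the number of arrays.

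Of all probes 29976 had 1 symbol, 10 several and 16646 none, and 29921 matched RefSeq (GRCm38.p6). The brightest probe stands for a gene. Named genes were the 10 per direction with the largest difference among passing probes, filled by smallest p among those with no overlap between genotypes, up to 4 members of each of 36 lists by smallest p with others needed to say what did not pass, and genes the paper names. The reading of this rule by brightest probe was settled after a first ranking by smallest p over all probes had been seen. The members, lists and motifs were chosen with earlier results of these data known. A bound sets the detected group's mean against the lowest detected signal or the probe's own, whichever was higher. The fit was tested on simulated data. Alternatives changed the block, weights, background, scaling, values, filter, threshold and prior, and left out each clone. Plots used matplotlib 3.10.9 under Python 3.11.15.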

Additional observations from a re-analysis of the deposited data

Results flagged for a closer look

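The change of the unnamed probe ILMN_1231006 differed between genotypes by 2.66 on the log2 scale in limma (adjusted p = 0.0508), higher in 3 of 3 p53-/- clones than in every WT clone. It was the only probe for which the test of the difference itself passed, and it did not pass in 10 of 21 alternatives, where the adjusted p reached 0.441. All 6 WT arrays left it undetected, so it was tested only because p53-/- arrays detected it, and the size of the difference is not exact.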

How the results depend on the processing

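The count of probes that passed for the genotype difference, 1 in the reported fit, was 0 with no replicate block, with a fixed replicate block over all 18 arrays, with no filter on detection and at an adjusted p of 0.05. It was 5 with clone as a random replicate block, 23 with an offset of 50, 45 with an intensity trend and robust prior, 97 with median scaling (70 higher and 27 lower) and 193 with each clone weighted (111 and 82), and 0 to 215 when each clone was left out. At an unadjusted p under 0.05 limma gave 1157 probes with no replicate block, 1589 with the fixed block over 18 arrays and 4191 with no filter. The count for WT cells, 804, was 409 with no replicate block, 1381 with no block, array weights and all 18 arrays, 1453 with each clone weighted, 3028 with no condition on B and 319 to 882 without a clone. For p53-/- cells, 754 became 394, 337, 500 (fixed replicate block, 18 arrays), 3896 with no condition on B and 280 to 1058. For the mean, 1512 became 906, 5831 with no condition on B and 910 to 1632. Of 160 named results, 150 kept their sign in all 21 alternatives. Those that changed only the filter, threshold or prior left the estimate as it was, as did a change of block without weights. No sign could turn in these. The sign turned for Fos (0.45), Myc (-0.14) and Bcl2 (0.016) with the authors' processed values, for Bcl2 (0.022) and Bcl11a (-0.53) with no replicate block, array weights and all 18 arrays, and for Calm3 (0.058) with median scaling. Without p53-/- clone 1 it turned for Bcl2 (0.093), Mxi1 (0.0055), Cd3d (-0.00043), Calm3 (0.18) and Ripk3 (0.079), without clone 3 for Mxi1 (0.032) and without clone 2 for Cish (-0.045). Without WT clone 2 it turned for Ms4a1 (0.10) and Ripk3 (0.019), and without WT clone 3 for Bcl11a (-0.024) and Ripk3 (0.038). Over the fits that left out 1 clone, these differences ran from -0.41 to 0.093 for Bcl2, -0.58 to 0.032 for Mxi1, -0.48 to 0.10 for Ms4a1, -0.00043 to 0.43 for Cd3d, -0.30 to 0.18 for Calm3, -0.024 to 0.39 for Bcl11a, -0.045 to 0.16 for Cish and -0.19 to 0.079 for Ripk3. The causes were not tested. Probes near background limit what can be read from them.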
